A study of Mus musculus with 16 samples.

Results

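The β-cell disallowed genes are housekeeping or widely expressed genes whose transcripts are kept unusually low in β cells. Here they are the 10 genes Ldha, Slc16a1, Hk1, Rest, Pdgfra, Oat, Acot7, Smad3, Cxcl12 and Igfbp4, and they were found by gene symbol in the deposited expression tables of mouse pancreatic islets. All 10 of 10 were among the 16815 genes held by both tables, which list 17361 and 17318 genes. The rule that chose them uses gene symbols and no measured value.

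The study sequenced total islet RNA from 16 libraries in 4 groups of 4, to ask how B7-H4, an immune checkpoint ligand encoded by Vtcn1, affects islets. Flox mice carry loxP sites on either side of exon 2 of Vtcn1 on both alleles (B7-H4 fl/fl) on a C57BL/6J background and were fed normal chow. B7-H4 cKO mice carry the same alleles and a Rip-Cre transgene, in which the rat insulin II promoter drives Cre in β cells, so the other cells of an islet preparation are not targeted. Flox mice served as littermate controls, and no library from mice with Rip-Cre alone was analysed here. The labels give no age for these groups. The other groups were fed a high-fat diet for 8 weeks from an age of 6 weeks and then infused through the pancreatic duct with an adeno-associated virus, either a control virus (H-ins2-C in the labels, called Ctrl below) or a virus with B7-H4 and ZSGreen under the rat insulin II promoter (H-ins2-O, called OE below). The methods call these mice Flox and the labels call them wild-type. Islets were released with collagenase and handpicked, and nothing says whether a library came from 1 mouse or from pooled mice, so the p-values below measure the spread between these libraries. Libraries are named by group and replicate, and values are FPKM, fragments per length of transcript and per mapped read total, a level corrected for gene length and depth.

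β cells couple glucose to insulin secretion by burning pyruvate in mitochondria. Lactate dehydrogenase A, the monocarboxylate transporter MCT1 and low-Km hexokinase would divert pyruvate, let circulating pyruvate or lactate into the cell, or phosphorylate glucose at fasting concentrations, and β cells keep all of them low. REST, the repressor of neuronal genes, is also low in endocrine cells, which share a vesicle and excitability program with neurons. Other members are typical of the neighbours of β cells: PDGF receptor alpha and CXCL12 of fibroblasts and other mesenchyme, and IGFBP4 of stromal and vascular cells. In islet RNA a disallowed transcript can therefore come from β cells, from other endocrine cells or from exocrine and stromal cells attached to the islet, and in bulk samples fewer cells of a type and less RNA per cell cannot be told apart.

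MicroRNAs of the miR-29 family are a known means by which β cells keep the MCT1 transcript low, so their mature sequences are shown first, with the seed (bases 2 to 8) in capitals. They are RefSeq entries on GRCm38.p6, and the 3 share 1 seed.
mmu-miR-29a-3p: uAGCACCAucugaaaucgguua
mmu-miR-29b-3p: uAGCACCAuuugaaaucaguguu
mmu-miR-29c-3p: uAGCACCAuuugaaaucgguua
The seed match TGGTGCT, read on the transcript strand, was searched in the longest annotated 3′ UTR of each gene of the GRCm38 annotation. It was present in 4 of the 10 members, Slc16a1 and Rest with 1 match each and Pdgfra and Igfbp4 with 2 each, against 13.3% of 20605 genes. All 4 have 3′ UTRs of at least 2000 bases, as have 6 members in all, and 30.4% of the 5333 genes with such long 3′ UTRs hold the match. A match for each of these members follows on the plus strand, with the seed match in capitals.
Slc16a1, chr3:104655781-104655803: cctctagtctaccagTGGTGCTc
Rest, chr5:77283530-77283552: gggtattttttatttTGGTGCTt
Pdgfra, chr5:75196350-75196372: accctgagaccacaaTGGTGCTg
Igfbp4, chr11:99053218-99053240: tcacctggtgctcacTGGTGCTc
The Igfbp4 match lies past the end of the RefSeq gene, in a longer annotated transcript. The gene's other match lies in the same printed stretch and is left in small letters. These are matches of letters and not measured sites, and no small RNA was measured here. Slc16a1, Rest and Pdgfra, 3 of the 4 genes with a match, were the 3 lowest members in every group, as given below. The other, Igfbp4, ranked 3rd of the 10 members in Flox, 4th in cKO and 2nd in Ctrl and OE. A link between match and level was not tested.

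RefSeq promoter entries, which run from 250 bases before to 50 bases after a start, were found for 9 of the 10 members. An entry each is shown for Ldha and Slc16a1, the best-known pair of the class, on the plus strand of GRCm38.p6. Ldha has another entry, chr7:46846832-46847131, which held 0 matches to the letters marked here and is not shown. Capitals mark ACGTG, a core of hypoxia-response elements, on either strand, and CACGTG, the E-box palindrome, holds it on both.
Ldha, chr7:46845554-46845853: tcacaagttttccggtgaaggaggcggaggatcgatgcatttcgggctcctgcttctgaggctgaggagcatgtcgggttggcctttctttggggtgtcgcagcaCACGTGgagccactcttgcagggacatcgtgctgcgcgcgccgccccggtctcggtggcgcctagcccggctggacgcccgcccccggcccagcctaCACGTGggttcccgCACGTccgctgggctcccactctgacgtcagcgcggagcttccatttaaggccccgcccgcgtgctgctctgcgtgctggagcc
Slc16a1, chr3:104638414-104638713: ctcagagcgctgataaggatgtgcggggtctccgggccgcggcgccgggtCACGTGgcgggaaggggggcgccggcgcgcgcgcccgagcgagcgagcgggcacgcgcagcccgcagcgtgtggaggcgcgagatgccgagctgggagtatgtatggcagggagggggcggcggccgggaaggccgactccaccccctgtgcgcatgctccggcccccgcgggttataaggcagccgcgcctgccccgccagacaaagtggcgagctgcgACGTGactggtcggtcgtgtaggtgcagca
The 9 members have 11 promoter entries. ACGTG on either strand was present in 4 of the 11, of Ldha, Slc16a1, Hk1 and Oat, against 19.6% of all 32851 entries. The GC box GGGCGG was present in 6 of the 11 against 35.7% of all entries. The members' entries had a median GC content of 63.3%, against 52.7% for all entries.

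The libraries differed widely in what else they held. The 21 measured acinar marker genes, such as those of trypsin, elastase and amylase, made up 7.67 to 36.7% of summed FPKM in Flox and 37.5 to 47.4% in cKO. In the Ctrl libraries they made up 5.70, 59.4, 77.6 and 2.24% in Ctrl-1 to Ctrl-4, and in the OE libraries 11.5 to 14.9%. Ctrl-2 and Ctrl-3 therefore stood apart as acinar-rich, and Ctrl-3 held 4.38% β-cell marker transcripts against 55.1% in Ctrl-1. Ctrl-4 had the highest share of endothelial, stromal and macrophage markers of the 16 libraries and an alpha-cell marker share of 13.2%. β-cell markers, which check the labelled tissue, made up 25.8 to 32.8% of summed FPKM in cKO and 35.4 to 54.7% in Flox. Vtcn1 was listed at 0.0188 to 0.216 FPKM in Flox, 0.0202 to 0.125 in cKO, 0.0636 to 0.371 in Ctrl and 40.0 to 127.7 in OE, so the overexpression labels were borne out and the knockout could not be checked at this level.

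**Figure D1:**
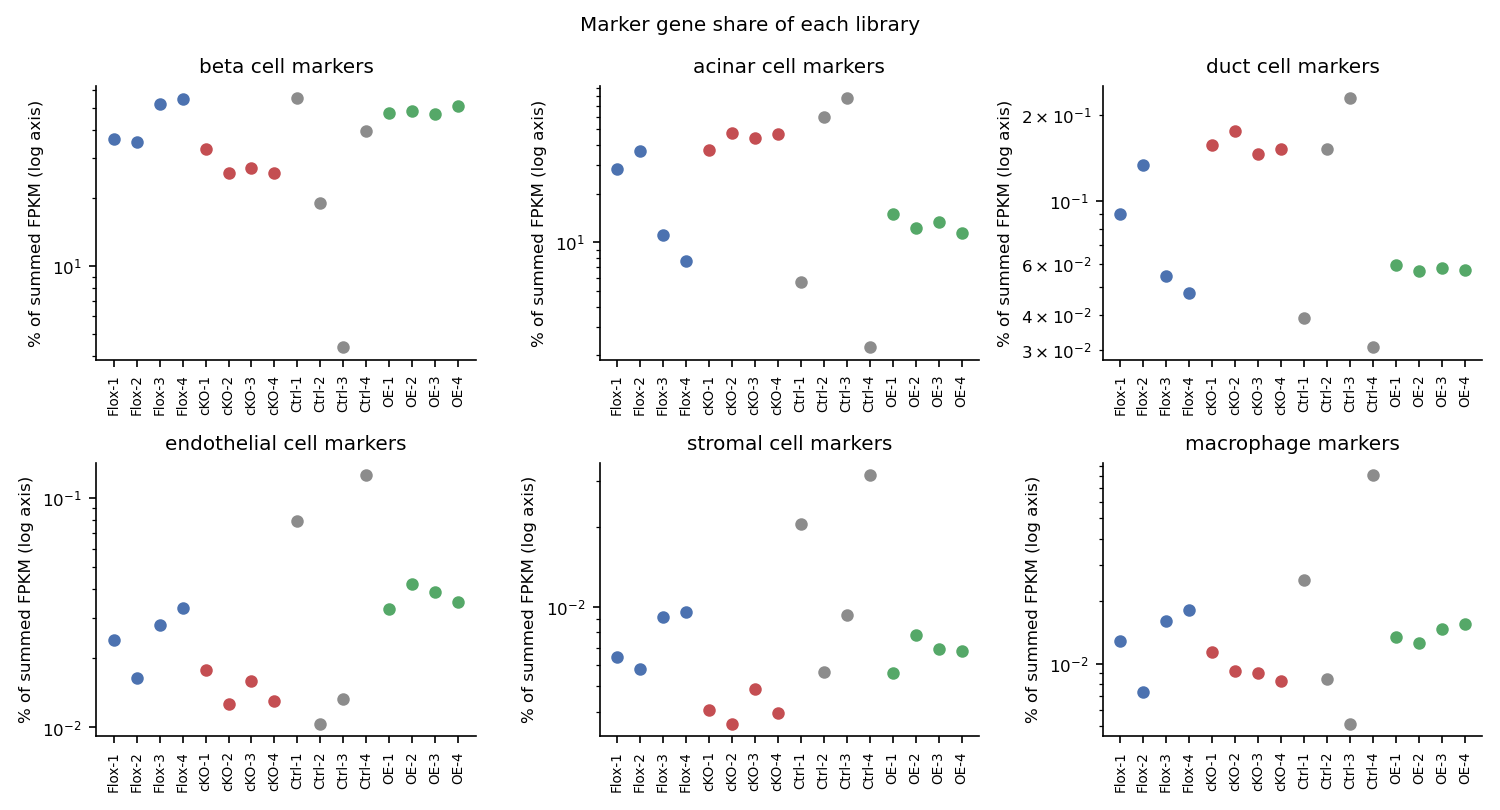
Each point is 1 library, named on the x axis and coloured by group, and the y axis is the share of a marker gene list in the summed FPKM on a log axis. The cKO libraries lie at 37.5 to 47.4% acinar share, while the Ctrl libraries run from 2.24 to 77.6%.

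The acinar share was 23.0 percentage points higher in cKO than in Flox with no overlap (exact permutation test, two-sided, p = 0.0286, the smallest p for 4 against 4, adjusted p = 0.0952 over 10 tests). The duct share was also higher in every cKO library and the stromal share lower in every cKO library. Each had p = 0.0286 and an adjusted p of 0.0952 in the exact permutation test. No share had an adjusted p under 0.05 in either comparison. Stromal markers took 0.00773% ± 0.00187 (SD, n = 4) of the summed FPKM in Flox and 0.00413% ± 0.000542 (SD, n = 4) in cKO. Between OE and Ctrl no share differed beyond the spread, and the exact permutation p was 0.429 for the acinar share and 0.114 for the stromal share. The part of these shares in the results below was not tested beyond the values given beside them.

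The members were low but measurable. In FPKM, which corrects for length, Oat led in every group with means of 6.08 FPKM in Flox, 6.92 in cKO, 8.11 in Ctrl and 4.94 in OE. Rest, Slc16a1 and Pdgfra held the lowest 3 places in every group, with means between 0.0752 and 0.393 FPKM. The mean of Oat stood at the 61.6th to 75.5th percentile of all genes of its table, and that of Pdgfra at the 17.5th to 27.7th. The median of the 10 members' means was 0.999 FPKM in Flox, 0.942 in cKO, 1.59 in Ctrl and 1.41 in OE. Most neighbours in the order overlapped. In Flox only Oat stood clear of the next gene, Ldha, and in Ctrl no member stood clear of the next. In cKO, Oat was clear of Ldha, Ldha of Smad3 and Acot7 of Rest. In OE, Ldha was clear of Smad3, Acot7 of Cxcl12, Cxcl12 of Rest and Rest of Slc16a1. The deposited values of every member were whole multiples of the worth of 1 read. The smallest whole read numbers they fit ran from 0 to 259 reads for Pdgfra, 10 to 50 for Slc16a1, 30 to 105 for Rest, 75 to 1025 for Igfbp4 and 321 to 863 for Ldha.

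**Figure D2:**
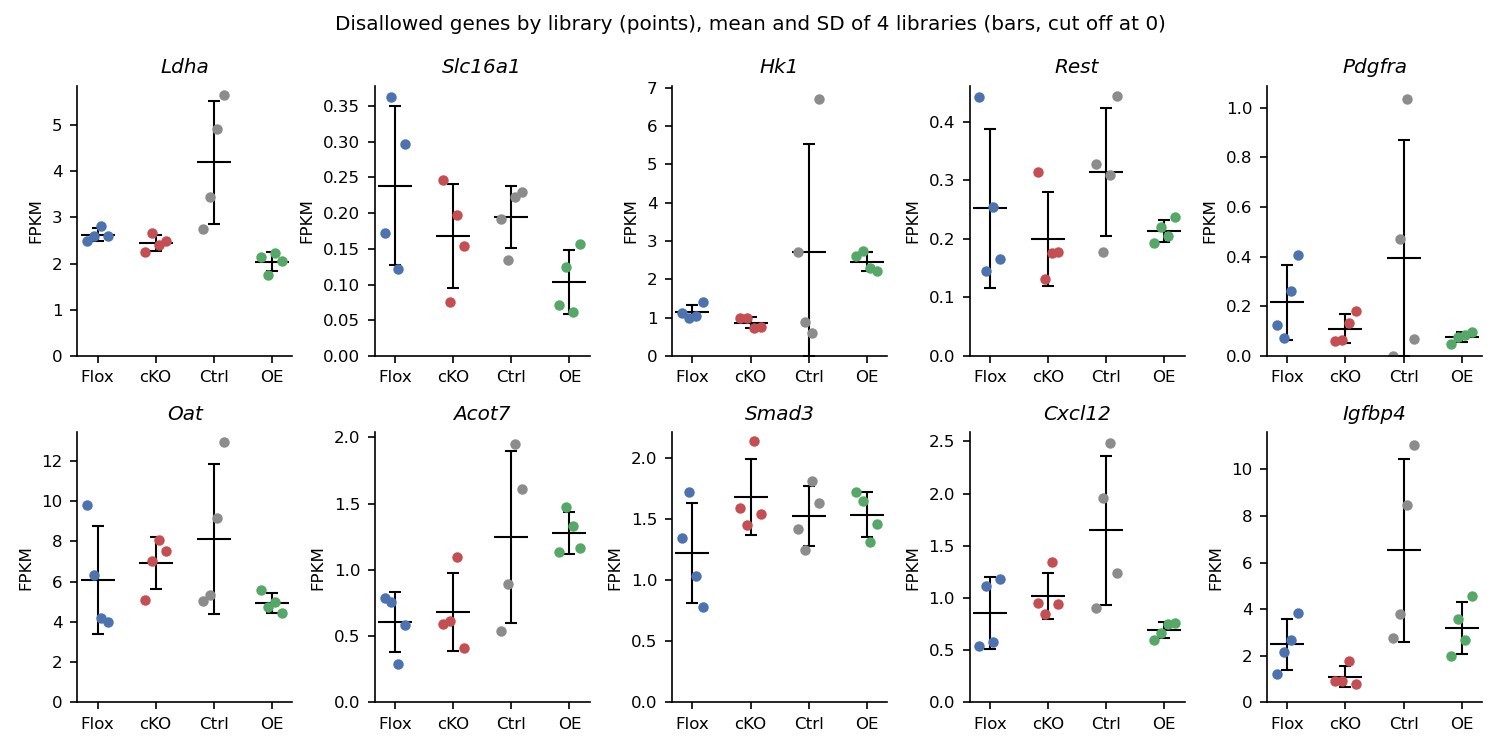
Each panel shows the FPKM of 1 disallowed gene on a linear y axis from 0, with a point per library in each of the 4 groups and bars for the mean and SD of 4 libraries, cut off at 0. Ldha and Cxcl12 in OE lie below every Ctrl library, and the Ctrl libraries are the most spread group for Ldha, Hk1, Pdgfra, Oat, Acot7, Cxcl12 and Igfbp4.

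Ldha (chr7:46842274-46855627, GRCm38.p6, protein coding) encodes the lactate dehydrogenase subunit that favours lactate formation. It was 2.48, 2.60, 2.81 and 2.59 FPKM in Flox-1 to Flox-4 and 2.26, 2.66, 2.39 and 2.49 FPKM in cKO-1 to cKO-4. The groups overlapped, and among the members Ldha varied least within the chow groups. Its log2 fold change, on log2(FPKM + 0.5), was -0.08 ± 0.18 (SE), with an adjusted p of 0.715 in limma. In the high-fat diet groups it was 2.76, 3.43, 4.92 and 5.65 FPKM in Ctrl-1 to Ctrl-4 and 2.14, 1.75, 2.23 and 2.05 FPKM in OE-1 to OE-4. Every OE library was below every Ctrl library. The log2 fold change was -0.84 ± 0.40 (SE), with an unadjusted p of 0.0478 and an adjusted p of 0.591 in limma over 12132 genes. Without the acinar-rich Ctrl-2 and Ctrl-3 it was -0.82, with an adjusted p of 0.0435, in a limma fit that called 21.9% of all 12311 genes lower and 2.44% higher.

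Ldhb encodes the subunit that favours lactate use, and it was the higher of the pair in nearly all libraries. It was 3.15 to 17.7 FPKM over the 16 libraries, and the ratio of Ldha to Ldhb was 0.0987 to 0.357 in 15 of them. In Ctrl-3 the ratio was 1.56, the only library with more Ldha than Ldhb.

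Slc16a1 (chr3:104638664-104658462), the transporter MCT1 for lactate and pyruvate, was 0.172, 0.363, 0.122 and 0.297 FPKM in Flox and 0.246, 0.0749, 0.197 and 0.155 FPKM in cKO. It was 0.191, 0.134, 0.222 and 0.229 FPKM in Ctrl and 0.0712, 0.125, 0.0612 and 0.156 FPKM in OE. The groups overlapped in both comparisons, and these values stand for 10 to 50 reads. Its mean was below 0.5 FPKM in both tables, so it was not tested among the filtered genes. With every listed gene tested its log2 fold change was -0.14 ± 0.12 (SE) for cKO, with an adjusted p of 0.437, and -0.20 ± 0.08 (SE) for OE, with an adjusted p of 0.639 in limma. Of the other monocarboxylate transporters, Slc16a7 was 0.242 to 0.825 FPKM and exceeded Slc16a1 in all 16 libraries.

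Hk1 (chr10:62268855-62379920) encodes hexokinase I, the low-Km enzyme. It was 1.12, 0.994, 1.04 and 1.42 FPKM in Flox and 0.992, 0.978, 0.725 and 0.755 FPKM in cKO. Every cKO library lay below every Flox library, but the nearest pair, Flox-2 and cKO-1, was 0.994 and 0.992 FPKM. The log2 fold change was -0.27 ± 0.18 (SE), with an adjusted p of 0.243 in limma, and -0.01 ± 0.12 (SE) after median-of-ratios scaling. That scaling divides each library by the median ratio of its genes to their geometric mean and so removes a shift common to most genes. In Ctrl Hk1 was 2.71, 0.880, 0.590 and 6.71 FPKM, an 11.4-fold range and the widest of the members listed above 0 in all 4 libraries. In OE it was 2.60, 2.74, 2.31 and 2.21 FPKM. The OE values fell inside the Ctrl range, and the log2 fold change was 0.28 ± 0.50 (SE), with an adjusted p of 0.755 in limma. It was -0.70, with an adjusted p of 0.112, without Ctrl-2 and Ctrl-3.

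Of 21 other genes of glycolysis and lactate handling, 18 were tested in cKO against Flox, and 2 were lower and 0 higher, beside 12.8% lower and 1.02% higher among all genes tested. They were Bsg, the chaperone of MCT1 (log2 fold change -0.41, adjusted p = 0.0484), and Gpd2, the mitochondrial glycerol phosphate dehydrogenase (-1.04, adjusted p = 0.0169). Neither passed after median-of-ratios scaling. In OE against Ctrl 0 of 17 tested genes passed, beside 0.033% higher and 0% lower among all genes. All 17 had a higher mean log2 value in OE, and their median log2 fold change was 0.75 beside 0.44 for all genes and -0.84 for Ldha. The list was drawn up with earlier results of these data known, so its counts are a description.

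Rest (chr5:77265494-77286432) encodes the RE1-silencing transcription factor, a repressor of neuronal genes. It was 0.442, 0.145, 0.254 and 0.166 FPKM in Flox and 0.315, 0.132, 0.176 and 0.177 FPKM in cKO. It was 0.327, 0.177, 0.309 and 0.444 FPKM in Ctrl and 0.193, 0.220, 0.204 and 0.236 FPKM in OE. The groups overlapped in both comparisons, and Rest was below the filter for testing. With every listed gene tested the log2 fold change was -0.09 ± 0.13 (SE) for cKO and -0.18 ± 0.12 (SE) for OE, with adjusted p of 0.639 for each in limma. Genes that REST is known to repress were abundant here. Chga, chromogranin A, averaged 3808 to 9185 FPKM by group. Of 14 such genes, 4 were lower in cKO, namely Syt4 (-0.93, adjusted p = 0.0175), Chga (-0.39, adjusted p = 0.0452), Gjd2 (-0.63, adjusted p = 0.0328) and Scg2 (-0.78, adjusted p = 0.0141), and 0 were higher. Among all genes tested 12.8% were lower, and the median log2 fold change was -0.40 for the list and -0.34 for all genes. Syt4 alone passed after median-of-ratios scaling, at -0.55. In OE 0 of 14 passed, beside 0.033% higher and 0% lower among all genes. All 14 had higher mean log2 values, with a median log2 fold change of 1.13 beside a median of 1.12 for 10 β-cell markers.

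Smad3 (chr9:63646766-63757994) carries TGF-β signals to the nucleus. It was 1.35, 1.73, 1.03 and 0.782 FPKM in Flox and 1.60, 1.45, 2.14 and 1.54 FPKM in cKO. The groups overlapped through Flox-2. The log2 fold change was 0.36 ± 0.20 (SE), with an adjusted p of 0.168 in limma. Without Flox-2 it was 0.50, with an adjusted p of 0.0349, in a limma fit that called 2.82% of all genes higher and 57.2% lower. Smad3 passed in only this 1 of the 8 fits with a single library left out. Over those 8 its log2 fold change ran from 0.23 to 0.50, with adjusted p up to 0.457 in limma. With the acinar share as a covariate it was -0.12, in a fit that called 0 of 11804 genes. Flox-2 has the highest acinar share of the Flox libraries. It was 1.42, 1.25, 1.81 and 1.63 FPKM in Ctrl and 1.72, 1.65, 1.31 and 1.46 FPKM in OE. These overlapped, with a log2 fold change of 0.01 ± 0.35 (SE) and an adjusted p of 0.989 in limma. Of the other genes of the pathway, 9 of 11 were tested in cKO against Flox. The receptor gene Tgfbr1 (-0.57, adjusted p = 0.0425) and Skil, a SMAD co-repressor induced by the pathway (-0.82, adjusted p = 0.0341), were lower and 0 were higher, beside 12.8% lower among all genes, and neither passed after median-of-ratios scaling. In OE 0 of 10 passed, beside 0.033% higher and 0% lower among all genes.

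Pdgfra (chr5:75151322-75198206), the PDGF receptor of mesenchymal cells, was 0.124, 0.0704, 0.263 and 0.408 FPKM in Flox and 0.0603, 0.0647, 0.134 and 0.179 FPKM in cKO. The groups overlapped. It was listed at 0, 0.470, 1.04 and 0.0682 FPKM in Ctrl and at 0.0489, 0.0745, 0.0825 and 0.0947 FPKM in OE. The 2 acinar-rich Ctrl libraries held the 2 highest values of all 16, and the OE values lay close to that of Ctrl-4. The 0 of Ctrl-1 allows a level of up to 0.0124 FPKM, the worth of 3 reads there, which covers counting error only. With every listed gene tested the log2 fold change was -0.21 ± 0.14 (SE) for cKO, with an adjusted p of 0.301, and -0.49 ± 0.31 (SE) for OE, with an adjusted p of 0.639 in limma.

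Cxcl12 (chr6:117168535-117181368) encodes a chemokine made by stromal and endothelial cells. It was 0.538, 1.12, 0.583 and 1.19 FPKM in Flox and 0.955, 0.844, 1.34 and 0.947 FPKM in cKO. These overlapped, with a log2 fold change of 0.19 ± 0.21 (SE) and an adjusted p of 0.454 in limma. It was 0.904, 1.96, 2.49 and 1.24 FPKM in Ctrl and 0.597, 0.663, 0.750 and 0.756 FPKM in OE. Every OE library was below every Ctrl library, and the acinar-rich Ctrl-2 and Ctrl-3 were the highest. The log2 fold change was -0.79 ± 0.35 (SE), with an unadjusted p of 0.0365 and an adjusted p of 0.591 in limma. It was -0.39, with an adjusted p of 0.113, without Ctrl-2 and Ctrl-3. Of 6 tested PDGF ligands, PDGFRB and CXCL12 receptors, Ackr3, a decoy receptor of CXCL12, was lower in cKO (-0.94, adjusted p = 0.0169), beside 12.8% of all genes, and it did not pass after median-of-ratios scaling. In OE 0 of 6 passed, beside 0.033% higher and 0% lower among all genes.

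Igfbp4 (chr11:99040005-99052655) encodes a secreted binding protein that holds IGFs. It was 1.24, 2.18, 2.69 and 3.83 FPKM in Flox and 0.917, 0.932, 1.77 and 0.792 FPKM in cKO. Only cKO-3 lay above the lowest Flox library, Flox-1. The log2 fold change was -0.86 ± 0.26 (SE), with an adjusted p of 0.0397 in limma over 11804 genes. Igfbp4 was the only one of the 7 tested members to pass the threshold in this fit. Beside it, the median of the fold changes over all tested genes was -0.34 (log2) and the stromal marker share was lower in every cKO library. After median-of-ratios scaling the value was -0.57 ± 0.24 (SE), with an adjusted p of 0.173. With the stromal share of non-acinar FPKM as a covariate it was 0.14, with an adjusted p of 0.999, in a limma fit that called 1 of 11804 genes. That share ran from 0.00903 to 0.0103% in Flox and from 0.00649 to 0.00877% in cKO. It did not overlap between the groups, so this fit can hardly tell share and group apart. The call was lost without Flox-3, Flox-4, cKO-1, cKO-2 or cKO-4, with adjusted p of 0.114, 0.121, 0.0625, 0.121 and 0.120 in limma. Those fits called 1.01, 0.997, 12.9, 0.144 and 0.608% of all genes lower, beside 12.8% with all libraries. In the high-fat diet groups it was 2.77, 3.80, 8.46 and 11.1 FPKM in Ctrl and 1.97, 3.56, 2.68 and 4.55 FPKM in OE. The groups overlapped, and the log2 fold change was -0.79 ± 0.48 (SE), with an adjusted p of 0.591 in limma. In the IGF axis, 4 of 9 tested genes were lower in cKO and 0 higher, beside 12.8% lower among all genes, and the median log2 fold change was -0.46 beside -0.34. They were Igf2 (-0.74, adjusted p = 0.0431) and the binding proteins Igfbp3 (-1.12, adjusted p = 0.0312), Igfbp6 (-1.18, adjusted p = 0.0345) and Igfbp7 (-0.67, adjusted p = 0.0208). Igf2, Igfbp3 and Igfbp7 did not pass after median-of-ratios scaling, and Igfbp6 was below the filter there. In OE 0 of 9 passed, beside 0.033% higher and 0% lower among all genes.

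Oat (chr7:132557475-132576398) encodes ornithine aminotransferase, a mitochondrial enzyme. It was 9.79, 6.35, 4.19 and 4.0 FPKM in Flox and 5.08, 7.03, 8.05 and 7.55 FPKM in cKO. The groups overlapped, with a log2 fold change of 0.24 ± 0.24 (SE) and an adjusted p of 0.428 in limma. It was 5.05, 5.32, 9.15 and 12.9 FPKM in Ctrl and 5.59, 4.72, 5.0 and 4.44 FPKM in OE. Ctrl-3 and Ctrl-4 were high and the other Ctrl libraries lay within the OE range, and the log2 fold change was -0.57 ± 0.44 (SE), with an adjusted p of 0.595 in limma.

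Acot7 (chr4:152178100-152271855) encodes a cytosolic acyl-CoA thioesterase. It was 0.787, 0.755, 0.292 and 0.587 FPKM in Flox and 0.595, 0.614, 1.10 and 0.411 FPKM in cKO. It was 0.542, 0.890, 1.95 and 1.61 FPKM in Ctrl and 1.13, 1.48, 1.33 and 1.17 FPKM in OE. Both pairs of groups overlapped, with log2 fold changes of 0.09 ± 0.21 (SE) and 0.10 ± 0.37 (SE) and adjusted p of 0.744 and 0.878 in limma. Of the other ornithine and acyl-CoA enzymes, 0 of 11 passed in cKO and 0 of 10 in OE. Among all genes, 12.8% were lower and 1.02% higher in cKO, and 0% were lower and 0.033% higher in OE.

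The filter of a mean of 0.5 FPKM or more was passed by 7 members in each comparison. In cKO against Flox 1 of 7 was lower and 0 higher, beside 12.8% lower and 1.02% higher among all 11804 genes tested. At an unadjusted p under 0.05 it was 1 member and 41.5% of all genes. Without overlap of the groups, 1 of 7, Hk1, was lower and 0 higher, beside 15.4% and 1.32% of all genes. The median log2 fold change of the 7 members was 0.09, beside -0.34 for all genes. In OE against Ctrl 0 of 7 passed in either direction, beside 0.033% higher and 0% lower among all 12132 genes tested. At an unadjusted p under 0.05 it was 2 members, Ldha and Cxcl12, and 6.41% of all genes. Without overlap, those 2 of 7 were lower and 0 higher, beside 0.964% and 5.61% of all genes. The median log2 fold change of the members was -0.57, beside 0.44 for all genes.

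**Figure D3:**
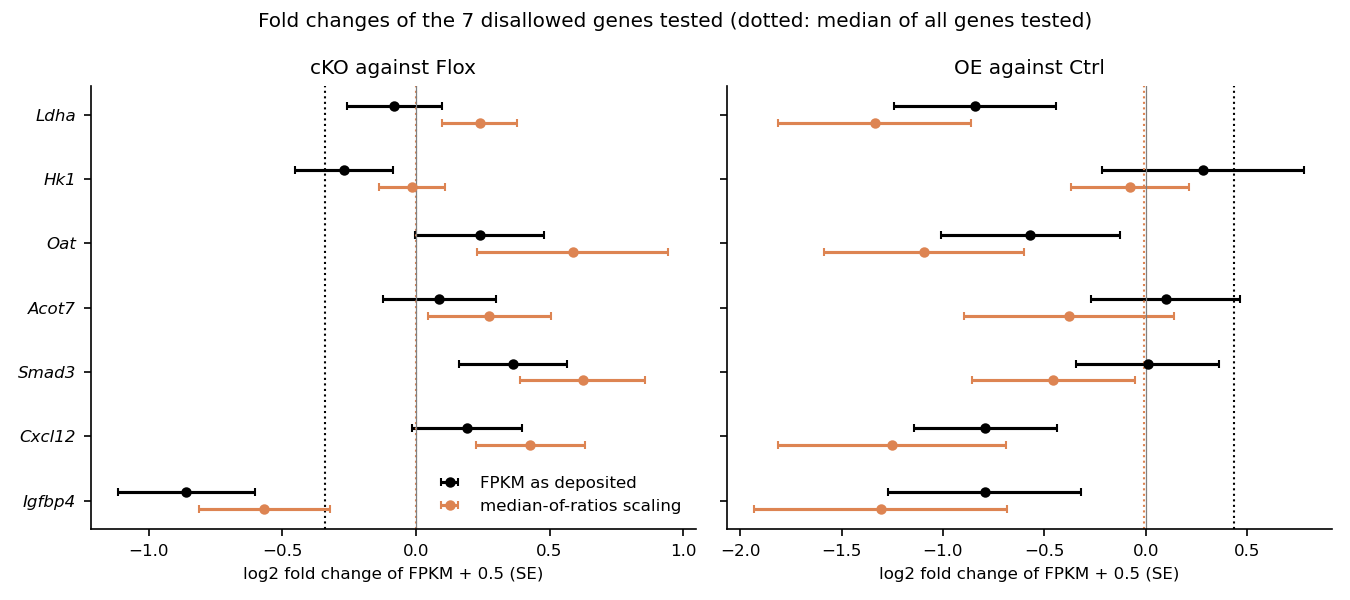
Log2 fold changes on FPKM + 0.5 with standard errors for the 7 members tested, cKO against Flox on the left and OE against Ctrl on the right, from FPKM as deposited (black) and after median-of-ratios scaling (orange). The dotted lines are the medians of all genes tested, at -0.34 and 0.44 as deposited and near 0 after scaling. Scaling moved the members up in cKO and down in OE, and turned the sign for Ldha in cKO and for Hk1, Acot7 and Smad3 in OE.

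The direction therefore depended on the scale for Ldha in cKO and for Hk1, Acot7 and Smad3 in OE. Oat, Cxcl12 and Igfbp4 kept their sign in both comparisons. Relative to the median gene, 6 of 7 members were higher in cKO as deposited, and 5 of 7 after median-of-ratios scaling, when Hk1 was at -0.01. Relative to the median gene, all 7 were lower in OE under both scales, from -0.15 for Hk1 to -1.28 for Ldha as deposited. None of these passed the test after scaling, where adjusted p ran from 0.131 to 0.954 in cKO and from 0.159 to 0.886 in OE for the 7 members. The acinar share was higher in every cKO library and uneven in Ctrl, and its part in these positions was not tested.

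The Ctrl libraries differed most in make-up, and the members differed between them. From Ctrl-1 to the acinar-rich Ctrl-3 the median gene dropped by 1.70 on the log2 scale and β-cell markers dropped by 3.22 in the median, while acinar markers were 4.07 higher. Pdgfra was 1.62 higher, Igfbp4 1.45, Acot7 1.24 and Cxcl12 1.09. Oat was 0.80 higher, Ldha 0.73 and Smad3 0.27, and these 7 members lay at the 95.4th to 98.2nd percentile of all genes. Hk1 dropped by 1.56, at the 57.8th percentile. Slc16a1 (0.06) and Rest (-0.03) hardly differed, but in Ctrl-1 both were below the added 0.5 FPKM and could fall little on this scale, as could Pdgfra, listed at 0 there. In Ctrl-2 against Ctrl-1 the median gene dropped by 1.01, and Pdgfra (0.96) and Cxcl12 (0.81) had the highest differences, followed by Acot7 (0.42), Igfbp4 (0.40) and Ldha (0.27). Hk1 dropped by 1.22 there, at the 28.3rd percentile. These are differences between single libraries, with no test.

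Ctrl-4, poor in acinar RNA but rich in stromal, endothelial, macrophage and alpha-cell markers, gave a different set. Against Ctrl-1 its median gene was 0.04 higher and its acinar markers dropped by 1.40, while stromal markers were 1.29 and macrophage markers 1.25 higher. Igfbp4 was 1.82 higher there, at the 99.0th percentile of all genes. Oat was 1.28 higher, Hk1 1.17, Acot7 1.02 and Ldha 0.92, at the 94.1st to 97.0th percentile. Pdgfra, Rest, Smad3 and Slc16a1 were 0.08 to 0.19 higher, at the 53.1st to 64.6th percentile. Hk1 was thus low in the acinar-rich libraries and high in Ctrl-4, while Pdgfra was high in the acinar-rich libraries and low in Ctrl-1 and Ctrl-4.

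**Figure D4:**
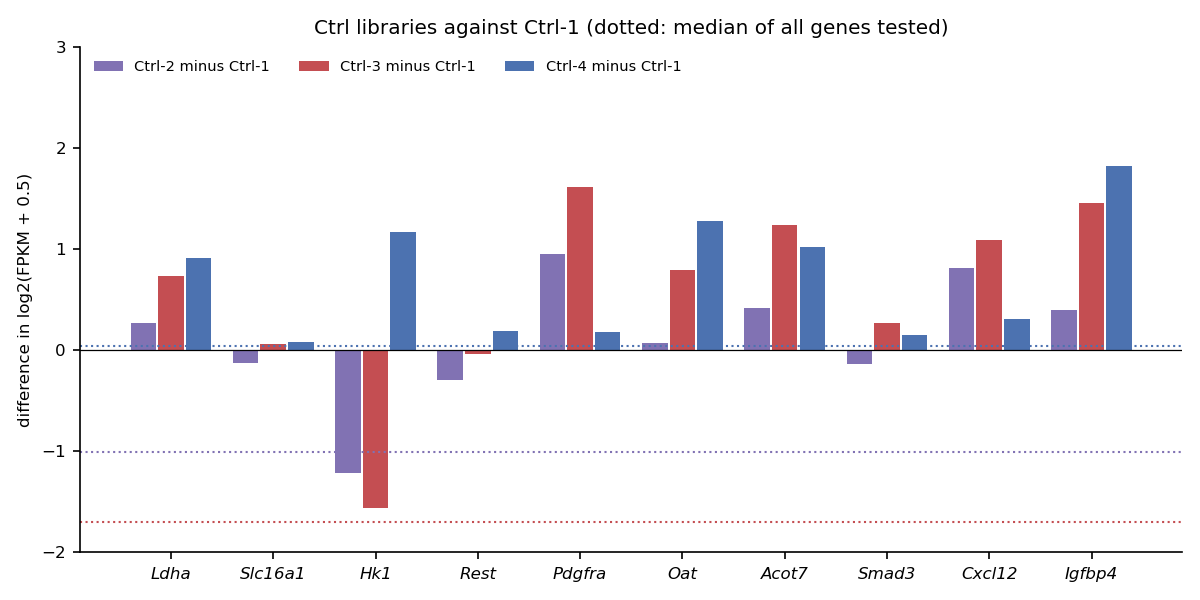
Bars give the difference in log2(FPKM + 0.5) of each member between Ctrl-2, Ctrl-3 or Ctrl-4 and Ctrl-1, and dotted lines of the same colour give the median of all genes tested. In Ctrl-3 Hk1 alone lies near the median line at -1.70, while Slc16a1, Rest and Pdgfra were too low in Ctrl-1 to fall that far on this scale.

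Across the 8 libraries of each table the level of each member, as log2(FPKM + 0.5), was set against the log2 share of each of 5 marker lists. A member and a share are parts of the same total, and the groups differ within each table, so the relation cannot be told apart from a group difference. The acinar share of the chow table fell into separate clusters and was left out, which gave 90 relations in all. None of the 40 relations in the chow table and 5 of the 50 in the high-fat diet table had an adjusted p under 0.05 for Pearson's r by exact permutation, and 0 of the 90 for Spearman's rho.

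Hk1 gave 4 of the 5. Its r with the acinar share was -0.97 (exact permutation, p = 0.00107, adjusted p = 0.0320, n = 8 libraries), with a Spearman rho of -0.79 (exact permutation p = 0.0279), and r was -0.91 without the 2 libraries farthest from the median share. Its r was -0.95 with the duct share, 0.94 with the endothelial share and 0.93 with the macrophage share, with adjusted p of 0.0320, 0.0393 and 0.0393 by exact permutation. The Spearman coefficients for these were -0.88, 0.88 and 0.67, and without the 2 farthest libraries r was -0.85, 0.87 and 0.73. After each value was centred on the mean of its group, r with the acinar share was still -0.97. The within-group value rests mostly on Ctrl, since the 4 OE libraries span 11.5 to 14.9% acinar share. The 4 shares vary together over the same Ctrl libraries, so the 4 relations are not separate observations. Alpha-cell markers, outside the 5 lists, made up 3.32, 0.423, 0.103 and 13.2% in Ctrl-1 to Ctrl-4. That is the order of Hk1 there, and the delta-cell markers had the same order. Which cells held the Hk1 transcript was not tested. Most genes were lower in the acinar-rich Ctrl-3 than in Ctrl-1: only 5.82% of all genes were higher, and Hk1 stood at the 57.8th percentile. Such relations were not computed for genes outside the members, so they cannot be called particular to Hk1.

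The fifth was Rest with the stromal share, with r = 0.95 (exact permutation, adjusted p = 0.0223, n = 8 libraries), rho = 0.90 (exact permutation p = 0.00456) and r = 0.90 without the 2 farthest libraries. Pdgfra had r = 0.94 with the duct share (exact permutation, adjusted p = 0.0526, n = 8), which was 0.41 without the 2 farthest libraries, Ctrl-2 and Ctrl-3, and so rested on them. In the chow table its r with the duct share had the opposite sign, at -0.87 (exact permutation, adjusted p = 0.0724, n = 8 libraries), and -0.26 without the 2 farthest. The highest r there was that of Igfbp4 with the stromal share, at 0.90 (exact permutation, adjusted p = 0.0526, n = 8 libraries), with rho = 0.86 and r = 0.69 without the 2 farthest. Smad3 had r = 0.86 with the duct share there, and 0.30 without the 2 farthest.

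The relations depended on the scale. Dividing by the FPKM outside the acinar markers left 2 of Hk1's relations, those with the acinar share (r = -0.84) and the endothelial share (r = 0.84). Rest with the stromal share came to r = 0.26 (exact permutation, adjusted p = 0.694, n = 8 libraries) and no longer passed. Pdgfra passed on this scale with the acinar share (r = 0.81) and the duct share (r = 0.92), each with an adjusted p of 0.0463 by exact permutation. Without the 2 farthest libraries these r were 0.94 and 0.46. Among the chow libraries 4 relations passed on this scale. Ldha with the endothelial share turned from r = 0.29 as deposited to -0.94 (exact permutation, adjusted p = 0.0435, n = 8 libraries), with rho = -0.98 (exact permutation, adjusted p = 0.0357), the 1 relation on either scale that passed by Spearman's rho. The other 3 were of Smad3, with r of 0.93 for the duct share and -0.88 for both the endothelial and the macrophage share, and an adjusted p of 0.0463 each by exact permutation. Without the 2 farthest libraries the r of Smad3 were 0.58, -0.56 and -0.52. The divisor itself went with the shares: it was highest in Flox-4 and lowest in cKO-2, which also had the highest and lowest endothelial share. Ldha as deposited ran only from 2.26 to 2.81 FPKM in the chow libraries. The relation of Ldha on this scale therefore cannot be told apart from that of the divisor. The same divisor enters the relations of Smad3, Pdgfra and Hk1 on this scale. In the high-fat diet table it was highest in Ctrl-4 and lowest in Ctrl-3, which had the lowest and highest acinar share. No relation passed in both tables on the same scale.

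**Figure D5:**
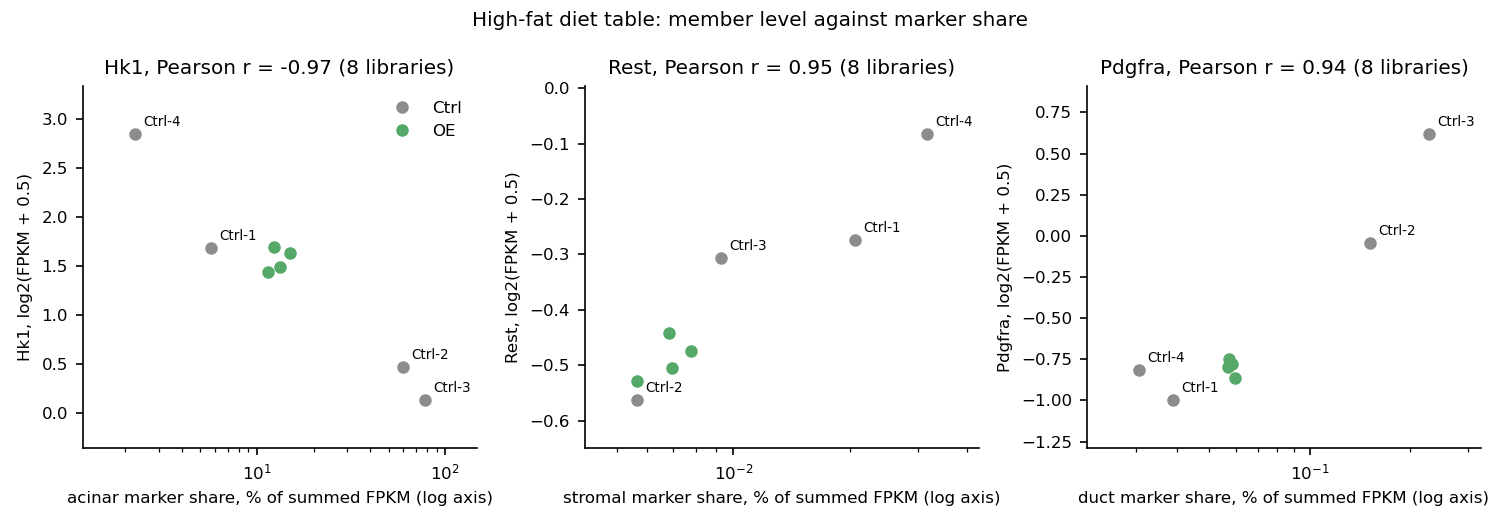
For the 8 high-fat diet libraries, log2(FPKM + 0.5) of Hk1, Rest and Pdgfra on the y axes is plotted against the acinar, stromal and duct marker shares on log x axes, with Ctrl in grey and OE in green. The OE libraries cluster, so the range of each share is set by the 4 Ctrl libraries.

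Genes whose pattern was most like each member were found by the smaller of the Pearson r values of the chow and high-fat diet tables, over 8 libraries each and after median-of-ratios scaling, among genes whose mean reached 1 FPKM in both. For Ldha they were the ribosomal protein genes Rpl23, Rpl11 and Rps7, with r of 0.97 each. The factor of that scaling ran from 0.814 to 1.37 in the chow table and from 0.338 to 1.47 in the high-fat diet table. Ldha as deposited ran only from 2.26 to 2.81 FPKM in the chow libraries. Its likeness there therefore cannot be told apart from the pattern of the factor. These genes were the closest of 10387 compared, over only 8 libraries a table. For Smad3 the first was Amy2a4, an amylase gene, at 0.98, followed by Itih2 and Smox. For Igfbp4 the first pair was Dcn, decorin (0.94), and Bgn, biglycan (0.93), both matrix proteoglycans, followed by Smim26. Cxcl12 was nearest to Smoc1 (0.95), Gstk1 and Fgfr1, and Oat to Elob (0.95), Kdelr3 and Ptprk. Acot7 was nearest to Cdc42ep4 (0.91), Baiap2l1 and Sema7a, and Rest to Fam8a1 (0.90), Fam114a2 and Bud31. Pdgfra was nearest to Rrp15 (0.86) and Insig2, and Slc16a1 to 2510002D24Rik (0.82), Smarcd2 and Alyref2. Hk1 had the weakest likeness to any gene, with Smc4 at 0.76, then Fmnl3 and Atg12. Smad3 as deposited had r = -0.03 with the acinar share in the high-fat diet table (exact permutation, adjusted p = 0.983, n = 8 libraries). What lies behind any of these likenesses was not tested.

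A further 15 genes counted among the disallowed genes, such as Maf, Lmo4, Cat, catalase, and Mgst1, a glutathione transferase, were listed in both tables and 12 were tested in each comparison. None passed in either comparison, beside 12.8% lower and 1.02% higher among all genes in cKO and 0.033% higher and 0% lower in OE. In cKO 7 of 12 had higher and 5 lower mean log2 values, with a median of 0.05. In OE 1 of 12, Zyx, was higher in mean log2 value and 11 lower, with a median of -0.69 beside 0.44 for all genes and -0.57 for the members. Mgst1 had the lowest value, at -1.33 ± 0.43 (SE), with 5.22 FPKM in Ctrl and 1.71 in OE on average and an adjusted p of 0.591 in limma.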

How the data were processed

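RNA from mouse islets was analysed in 16 libraries. The authors deposited FPKM, already normalised, in a table for the chow groups and another for the high-fat diet groups, which were tested apart. Per the labels' processing notes the build is mm10, and the aligner and counting tool are not given in the sources used here. Total reads are unknown, but the steps between values gave relative depths of 0.840 to 1.08 times the median of each table. Whole reads were recovered for each member within 0.05 of a whole number, up to a common factor, and the worth of a read differed by the same 1.06-fold between the first libraries of the tables for all 10 members.

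Genes whose mean over 8 libraries reached 0.5 FPKM were compared as log2(FPKM + 0.5), two-sided, with limma 3.58.1 (R 4.3.3), using trended and robust empirical Bayes. Benjamini-Hochberg adjustment covered all genes tested, with calls at an adjusted p under 0.05. Fold changes on this scale understate those of low genes. Marker shares are sums of marker FPKM over all FPKM. The stromal covariate of the alternative fits was instead the stromal sum over the FPKM outside the acinar markers. The fits were tested on simulated data. Members and gene lists were chosen with earlier results of these data known. The text names all 10 members, genes within the listed pathways and markers, Vtcn1, and the 3 genes most like each member. A few genes that these rules would name are not reported here. The closing section gives the alternatives tried. The replicate numbers did not pair the libraries.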

Additional observations from a re-analysis of the deposited data

How the results depend on the processing

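In cKO against Flox 1 member passed. With no filter on low values, with median-of-ratios scaling, with scaling to non-acinar FPKM, and without trend or robust fitting, 0 passed. With the acinar share or the stromal share of non-acinar FPKM as a covariate, and with an absolute log2 fold change over 1, 0 passed. Over all genes, 0 of 17361 passed with no filter, 0 of 11804 with the acinar covariate and 1 with the stromal covariate. Members could hardly pass in those fits. Lower genes made up 1.25% with median-of-ratios scaling, 0.296% with non-acinar scaling and 8.25% without trend or robust fitting. With each library left out the number of members passing was 0 to 2. With the heatmaps' 3 libraries a group it was 1, but another gene: Igfbp4 did not pass (-0.84, adjusted p = 0.0695 in limma) and Smad3 did (0.51, adjusted p = 0.0454). Over all genes 1511 were lower in cKO, 7484 with those 3 libraries a group, and from 17 without cKO-2 to 6759 without Flox-2. In OE against Ctrl 0 passed, 0 with each library left out, and 1 (Ldha) without the acinar-rich Ctrl-2 and Ctrl-3, where 21.9% of all genes were lower, an alternative chosen after seeing the data. The replicate block left Igfbp4 at -0.86 with an adjusted p of 0.00221 in limma and gave 1 member in cKO, where 20.8% of all genes were lower, and 0 in OE, but libraries of the same number did not deviate together (correlations of -0.215 to 0.122), so the numbers are only names. Relations under the adjusted threshold numbered 0 in the chow table and 4 with scaling to non-acinar FPKM, and 5 in the high-fat diet table and 0 without the 2 farthest libraries. There 6 remain and the smallest adjusted p over the 90 relations was 0.125, so this 0 says nothing about stability.

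Signs turned in cKO for Ldha with median-of-ratios (0.24) and non-acinar scaling (0.26), Hk1 with non-acinar scaling (0.00053), Oat (-0.52), Acot7 (-0.24) and Smad3 (-0.12) with the acinar covariate, Igfbp4 with the stromal covariate (0.14), and Acot7 without Flox-3 (-0.064) or cKO-3 (-0.069). In OE they turned for Hk1 (-0.077), Acot7 (-0.38) and Smad3 (-0.45) with median-of-ratios scaling and at -0.14, -0.41 and -0.50 with non-acinar scaling. Hk1 also turned with the acinar covariate (-0.42), without Ctrl-3 (-0.10) and without Ctrl-2 and Ctrl-3 (-0.70). Acot7 turned with only the heatmaps' 3 libraries a group (-0.093) and without Ctrl-1 (-0.12), and Smad3 without Ctrl-1 (-0.014), Ctrl-2 (-0.059), OE-1 (-0.034) or OE-2 (-0.018). Oat (0.16) and Igfbp4 (0.31) turned with the stromal covariate. With each library left out, the values ran from -0.069 to 0.20 for Acot7 in cKO, and in OE from -0.10 to 0.81 for Hk1, -0.12 to 0.29 for Acot7 and -0.059 to 0.075 for Smad3. Of 131 alternative values in cKO 109, and of 140 in OE 122, kept their direction and their side of the threshold. Over the marker shares, cKO minus Flox was 0.0760 percentage points for duct, -0.0105 for endothelial, -0.00360 for stromal and -0.00415 for macrophage markers. The causes were not tested. If each step is 1 read, counting error is 9.76 to 31.6% of a value for Slc16a1 and Rest, which stand for 10 to 105 reads.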
